A study of Bos taurus with 7 samples.

Results

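A set of 8 genes of cell-cell adhesion was followed through early growth of the bovine ovarian follicle. They comprise 4 cadherins (*CDH1*, *CDH2*, *CDH3* and *CDH11*), 2 catenins (*CTNNA1* and *CTNND1*), the tight junction scaffold *TJP1* and the neural cell adhesion molecule *NCAM1*. These 8 of 23704 genes were chosen by name, with earlier results of the same libraries in view, and the RefSeq transcripts of each gene were summed. Their values in the comparison of stages, and whether each passed a threshold, are therefore given as a description. No test was made of the 8 genes as a set.

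Cadherins are membrane proteins that join neighbouring cells by binding cadherins of the same or a related kind in the presence of calcium. Inside the cell their tails hold p120 catenin and either beta-catenin or plakoglobin, and alpha-catenin links that complex to actin. Neighbouring cells of 1 type usually carry the same cadherins, and a change from 1 cadherin to another accompanies many rearrangements of tissues. In the ovarian follicle, cadherin contacts and gap junctions hold the granulosa cells to each other and to the oocyte.

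Whole follicles were pooled for each library, which thus mixes oocyte RNA with granulosa cell RNA. Secondary follicles (SF, 3 libraries) have granulosa cells in several layers, and primary follicles (PF, 4 libraries) have an oocyte inside a single layer of cuboidal ones. Both stages came from abattoir ovaries of Holstein Friesian dairy cows aged between 1 and 2 years, were isolated mechanically and sorted by mesh size and morphology, and were kept for recovery in a medium with insulin, transferrin, selenium and FSH before lysis. Neither stage received another treatment, and the labels mark both as T0. The study drew on several animals and collections and describes its pools as biological replicates. The sources used here do not tie libraries to animals. The p-values therefore reflect no more than the spread among these samples, and how much of that spread is technical is not known. In such pools, fewer cells of a type and less RNA per cell cannot be told apart.

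Each library held between 18788105 and 23764615 estimated counts, with 12188 to 13034 genes at 1 TPM or more (TPM, a measure of abundance that takes transcript length and library size into account). Of the 12 oocyte and 12 granulosa markers, all but *NR5A2* had counts in every library. *NR5A2*, a granulosa marker, was at 0 in SF replicate 1 and PF replicates 1 to 3, and the oocyte marker *DDX4* had only 4 counts in SF replicate 3. The 12 oocyte markers summed to 1540, 1160 and 183 TPM in SF replicates 1 to 3, against 3994, 3787 and 2026 TPM in PF replicates 1 to 3. The 12 granulosa markers summed to 7615, 7526 and 7382 TPM in SF, against 3234, 2203 and 2449 TPM in PF replicates 1 to 3. Hence every comparison of whole follicles was also a comparison of more granulosa and less oocyte RNA with the reverse. PF replicate 4 stood apart, with 379 TPM of oocyte markers and 5859 TPM of the 9 stromal fibroblast markers, against 216 to 618 TPM of the stromal list in the other 6 libraries. It was left out of the comparison, as in the study, and is shown apart. SF replicate 3 had the least oocyte marker RNA of the 7 libraries and 637 TPM of the keratin gene *KRT8*, against 6.01 to 67.8 TPM in the other 5 libraries compared, so values without it are also given.

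Between the stages, 3 of the 8 genes passed the threshold of DESeq2 (adjusted p below 0.05, 3 SF against 3 PF libraries). *CDH2* was higher in SF, and *CDH3* and *NCAM1* were lower. The same rule called 19.1% of the 15056 genes tested, with 8.14% higher and 11% lower in SF. The TPM of the 2 groups did not overlap for 4 of the 8 genes, against 32.7% of all genes tested. The median log2 fold change was 0.36 over the 8 genes and 0.02 over all genes tested. With the quasi-likelihood test of edgeR no gene of the whole table passed an adjusted p of 0.05, although 3844 genes and 4 of the 8 had an unadjusted p below 0.05. With limma on log2(TPM + 1), 2 of the 8 and 6.02% of the genes tested passed, and with PF replicate 4 kept in DESeq2, 1 of the 7 of them that received an adjusted p and 5.82%.

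**Figure D1:**
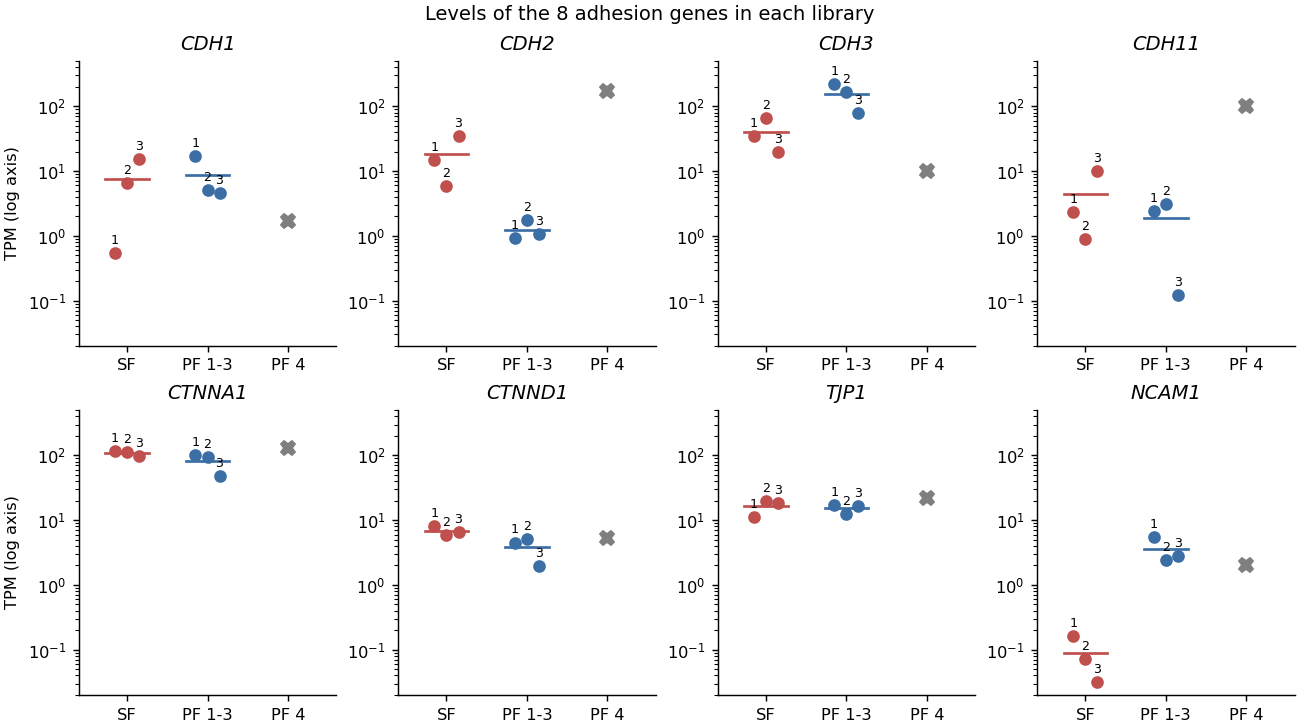
Level of each of the 8 genes in TPM (log axis) in the 3 SF libraries, PF replicates 1 to 3 and PF replicate 4 (cross); digits are replicate numbers and lines are group means. *CDH2* lay above every one of PF replicates 1 to 3 in all 3 SF libraries, *CDH3* and *NCAM1* lay below them, and PF replicate 4 held the highest *CDH2* and *CDH11* values.

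*CDH2* encodes N-cadherin, the classical cadherin of neural and mesenchymal cells and a cadherin of granulosa cells in several mammals. Its level was 14.9, 5.88 and 34.5 TPM in SF replicates 1 to 3, against 0.914, 1.76 and 1.07 TPM in PF replicates 1 to 3. The means were 18.4 ± 14.6 TPM in SF and 1.25 ± 0.449 TPM in PF (SD, n = 3 each), with a log2 fold change of 4.06 ± 0.72 (SE). The lowest SF value was above the highest PF value, but the SF libraries themselves spread widely, with replicate 3 highest and replicate 2 lowest. Behind these levels stood 361 to 2174 estimated counts in SF and 58 to 113 in PF replicates 1 to 3. Without SF replicate 3 the log2 fold change of *CDH2* was 3.15, and it passed the threshold with each of the 6 libraries left out in turn.

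The level of *CDH2* in PF replicate 4 was 172 TPM, above that of every other library, SF included. With this library kept among the PF, the log2 fold change turned to -1.26 and did not pass. The direction of *CDH2* between the stages thus rested on leaving PF replicate 4 out. In that library 6 of the 9 stromal fibroblast markers were at their highest of the 7 libraries, with *COL3A1* at 1097 TPM and *PDGFRA* at 117 TPM, while *OGN* was at 0 and *DCN* at 168 TPM. The smooth muscle and pericyte list summed to 1038 TPM there, against 221 to 261 TPM in SF and 72.6 to 155 TPM in PF replicates 1 to 3. It came mainly from *ACTA2* (702 TPM) and *TAGLN* (260 TPM), the 2 of its 7 markers that were highest there, while *MYH11* (28.5 TPM) was at its lowest of the 7 libraries and *RGS5* was at 0.0664 TPM. In SF the stromal marker *COL1A1* had 19.0, 7.29 and 19.8 TPM, against 5.92, 4.95 and 7.40 TPM in PF replicates 1 to 3. It was called higher in SF (DESeq2 adjusted p = 0.045), and no other marker of the stromal list was called. None of the 9 lay wholly above or wholly below PF replicates 1 to 3 in SF. The part of stromal or smooth muscle cells in the *CDH2* level, in PF replicate 4 or in SF, was not tested.

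*CDH2* was also set against the granulosa markers within each library, as its log2(TPM + 1) minus the mean log2(TPM + 1) of that list. This difference was -2.65, -4.11 and -1.86 in SF, against -4.72, -4.00 and -4.42 in PF replicates 1 to 3. On this scale SF replicates 1 and 3 remained above the PF libraries and SF replicate 2 fell inside their range. The means were -2.87 ± 1.14 in SF and -4.38 ± 0.36 in PF (SD, n = 3 each).

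*CDH3* encodes P-cadherin, a classical cadherin named for the placenta and found in several epithelia. It had 34.8, 66.0 and 19.8 TPM in SF replicates 1 to 3, against 224, 168 and 79.2 TPM in PF replicates 1 to 3. The mean level was 40.2 ± 23.6 TPM in SF and 157 ± 73.0 TPM in PF (SD, n = 3 each), with a log2 fold change of -1.85 ± 0.49. The highest SF library lay below the lowest PF library, and the gap between those 2 libraries was small beside the spread of either group. PF replicate 4 held 10.1 TPM, less than any other library. Without SF replicate 3 the log2 fold change was -1.54 and without SF replicate 2 it was -2.29, and *CDH3* passed the threshold in both of these fits. With PF replicate 4 kept, the log2 fold change was -1.49 and did not pass.

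*CDH3* was also set against the oocyte markers within each library. Relative to the mean log2(TPM + 1) of the 12 oocyte markers in the same library, *CDH3* stood at 0.09, 1.01 and 1.47 in SF, against 0.88, 0.37 and 0.43 in PF replicates 1 to 3 and -0.41 in PF replicate 4. On this scale the 2 groups overlapped, with means of 0.86 ± 0.70 in SF and 0.56 ± 0.28 in PF (SD, n = 3 each). Relative to the granulosa markers it was lower in every SF library, at -1.64 ± 0.92 in SF and 1.66 ± 0.70 in PF. The part of the smaller oocyte share of SF in the *CDH3* difference was not tested.

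**Figure D2:**
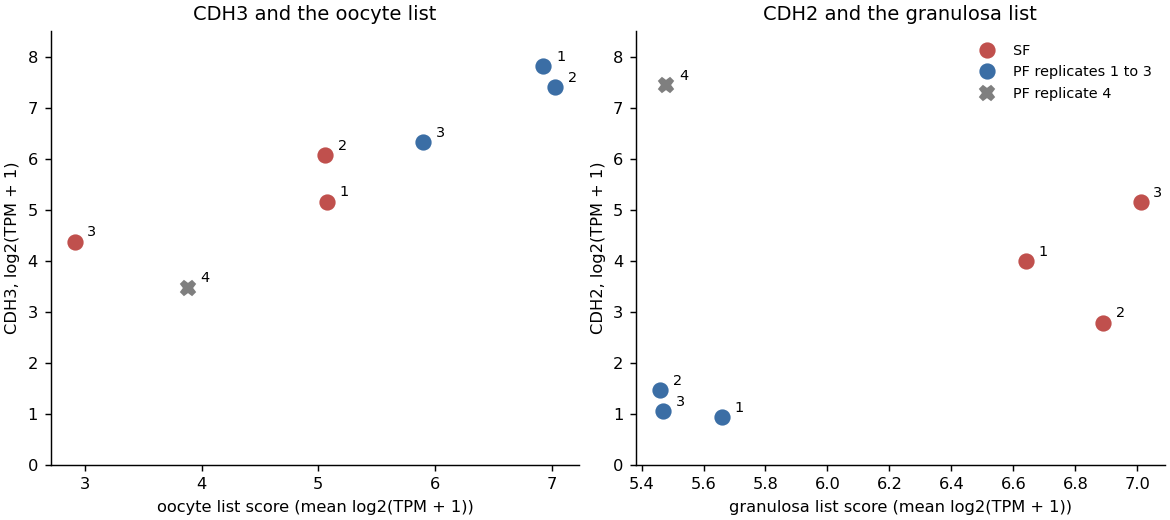
Left, *CDH3* against the mean log2(TPM + 1) of 12 oocyte markers; right, *CDH2* against the same mean of 12 granulosa markers; each point is 1 of the 7 libraries with its replicate number. *CDH3* and the oocyte list were both highest in PF replicates 1 and 2, and *CDH2* was high in the 3 SF libraries and in PF replicate 4, whose granulosa score of 5.48 lay beside those of the other PF libraries.

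*CDH1* encodes E-cadherin, the principal cadherin of epithelia, whose loss accompanies the change of epithelial cells into mesenchymal ones. Its level was 0.547, 6.66 and 15.3 TPM in SF replicates 1 to 3, against 16.9, 5.04 and 4.55 TPM in PF replicates 1 to 3 and 1.70 TPM in PF replicate 4. The groups overlapped over nearly their whole range, and the spread inside SF was larger than any difference between the stages. The means were 7.51 ± 7.42 TPM in SF and 8.83 ± 6.99 TPM in PF (SD, n = 3 each), with a log2 fold change of 0.01 ± 1.04. Its sign was the opposite in 8 of the 16 alternatives, between -1.21 without SF replicate 3 and 0.72 without PF replicate 1 among the libraries left out. SF replicate 3, with the most *CDH1* of the SF libraries, also had the highest sum of the 7 ovarian surface epithelium markers, 873 TPM, against 187 and 143 TPM in SF replicates 1 and 2 and 140 to 290 TPM in PF replicates 1 to 3. Most of that sum was *KRT8* (637 TPM) and *KRT18* (192 TPM), while *KRT19* was at its lowest of the 7 libraries there (2.79 TPM), *MSLN* at its lowest of the SF libraries (38.9 TPM) and *KRT7* at 0 in all 6 libraries compared. PF replicate 1, with the most *CDH1*, had the lowest sum of the list. PF replicate 4, with 1.70 TPM of *CDH1*, had a sum of 635 TPM, of which *KRT8* made up 591 TPM. The part of such cells in *CDH1* was not tested.

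*CDH11* encodes OB-cadherin, a cadherin of mesenchymal cells such as osteoblasts and fibroblasts. It had 2.31, 0.906 and 9.90 TPM in SF replicates 1 to 3, against 2.40, 3.09 and 0.120 TPM in PF replicates 1 to 3. The groups overlapped, SF replicate 3 was highest and PF replicate 3 held only 7 estimated counts. The log2 fold change was 1.51 ± 1.18, did not pass, and was -0.02 without SF replicate 3. In PF replicate 4 *CDH11* was at 102 TPM, more than in any other library, as *CDH2* was. With that library kept, the log2 fold change was -2.59 and DESeq2 gave no adjusted p for *CDH11*.

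All 21 *CDH* genes that were listed (the 4 above and 17 others) were summed to see which cadherin each library held most of. The sum was 77.6, 108 and 113 TPM in SF replicates 1 to 3, against 309, 272 and 136 TPM in PF replicates 1 to 3, so no SF library reached the lowest of these PF libraries. *CDH3* made up 44.8%, 61.2% and 17.5% of it in SF, against 72.5%, 61.9% and 58.1% in PF replicates 1 to 3. *CDH2* made up 19.1%, 5.46% and 30.6% in SF, against 0.30%, 0.65% and 0.79% in PF replicates 1 to 3. *CDH3* was thus the first cadherin in 2 of the 3 SF libraries and in PF replicates 1 to 3, while *CDH2* was the first in SF replicate 3.

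The ratio of *CDH3* to *CDH2* levels (TPM over TPM) was 2.34, 11.2 and 0.572 in SF replicates 1 to 3, against 245, 95.9 and 73.9 in PF replicates 1 to 3. The 2 stages did not overlap in this ratio, which rested on the same values that set the call of each gene. PF replicate 4 was unlike both stages, with a sum of 370 TPM made up of 46.6% *CDH2*, 27.7% *CDH11* and 2.72% *CDH3*, and a ratio of 0.0585.

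**Figure D3:**
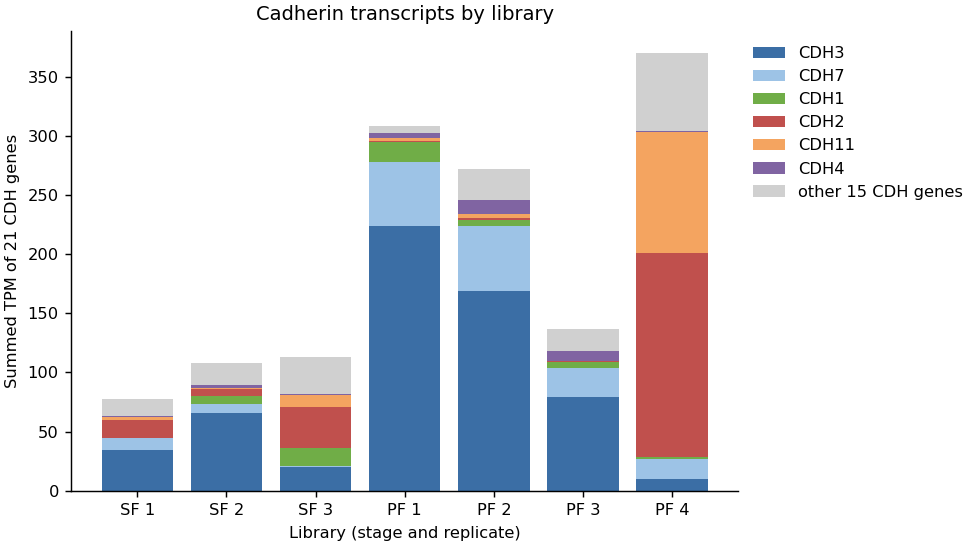
Summed TPM of 21 *CDH* genes in each library, split by gene, with the 15 genes not named drawn together in grey. The 3 SF bars reach 77.6 to 113 TPM and hold more *CDH2*, PF replicates 1 to 3 reach 136 to 309 TPM and are mostly *CDH3* with *CDH7*, and PF replicate 4 is mostly *CDH2* and *CDH11*.

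*CTNNA1* encodes alpha-catenin, the link from the cadherin complex to actin. It was the most abundant of the 8 genes in SF, with 117, 111 and 98.1 TPM in SF replicates 1 to 3, against 103, 95.6 and 48.0 TPM in PF replicates 1 to 3 and 131 TPM in PF replicate 4. The 2 groups overlapped and PF replicate 3 was the only library below 95 TPM. The means were 109 ± 9.63 TPM in SF and 82.3 ± 29.9 TPM in PF (SD, n = 3 each), with a log2 fold change of 0.56 ± 0.31 that did not pass.

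*CTNND1* encodes p120 catenin, which binds the tails of cadherins near the membrane and slows their removal from the cell surface. It had 8.19, 5.85 and 6.46 TPM in SF replicates 1 to 3, against 4.52, 5.12 and 1.99 TPM in PF replicates 1 to 3 and 5.37 TPM in PF replicate 4. Every SF library lay above PF replicates 1 to 3, by a small margin between SF replicate 2 and PF replicate 2. The log2 fold change of 0.98 ± 0.44 did not pass. With the library number as a covariate, both catenins passed, at 0.74 for *CTNNA1* and 1.25 for *CTNND1*. *CTNNA1* exceeded *CTNND1* by a factor of 14.3, 19.0 and 15.2 in SF, against 22.8, 18.7 and 24.1 in PF replicates 1 to 3.

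*TJP1* encodes ZO-1, a scaffold on the inner face of tight junctions that also binds alpha-catenin and connexins. Its level was 11, 20.0 and 18.4 TPM in SF replicates 1 to 3, against 17.4, 12.6 and 16.5 TPM in PF replicates 1 to 3 and 21.8 TPM in PF replicate 4. Of the 8 genes it had the narrowest range over the 7 libraries relative to its level. The means were 16.4 ± 4.78 TPM in SF and 15.5 ± 2.58 TPM in PF (SD, n = 3 each), and the log2 fold change of 0.17 ± 0.37 did not pass. Relative to the granulosa markers *TJP1* was lower in every SF library, at -2.76 ± 0.28 in SF and -1.50 ± 0.18 in PF, and relative to the oocyte markers it was higher in every SF library, at -0.26 ± 1.47 in SF and -2.59 ± 0.76 in PF.

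*NCAM1* encodes the neural cell adhesion molecule, an immunoglobulin-type protein that joins cells without calcium and is best known from neurons. Its level was 0.162, 0.0717 and 0.0312 TPM in SF replicates 1 to 3, against 5.48, 2.39 and 2.75 TPM in PF replicates 1 to 3 and 2.02 TPM in PF replicate 4. These came from 10, 4 and 2 estimated counts in SF, against 432, 180 and 217 counts in PF replicates 1 to 3 and 95 counts in PF replicate 4. The gene was near the limit of detection in every SF library and plainly counted in all 4 PF libraries. The log2 fold change was -5.66 ± 0.77. Pooled over the libraries compared, 16 counts in SF stood against 829 in PF, a ratio of SF to PF, corrected for library totals, of 0.0173 with an exact 95% interval of 0.00981 to 0.0282. That interval treats every pooled count as independent, and thus leaves out the spread between libraries. Without molecular identifiers, copies made by amplification could not be told from separate molecules. The interval therefore does not fully cover the error of counting molecules either.

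*NCAM1* was the only one of the 3 genes past the threshold that also passed it with PF replicate 4 kept, with a log2 fold change of -5.46. Relative to the granulosa markers it was lower in every SF library, and relative to the oocyte markers the groups overlapped, at -4.23 ± 1.18 in SF and -4.50 ± 0.68 in PF (SD, n = 3 each). On that log2(TPM + 1) scale levels far below 1 TPM are compressed. Among neural and glial markers, *S100B* was also lower in SF, at 21.2, 9.37 and 5.14 TPM in SF, against 32.4, 42.8 and 35.8 TPM in PF replicates 1 to 3 (-1.55 ± 0.59, DESeq2 adjusted p = 0.045). *TUBB3* and *ELAVL4* were detected and did not pass, and *SOX10* was at 0 in all 7 libraries. The part of such cells in *NCAM1* was not tested.

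Ordered by level (TPM) within SF, *CTNNA1* came first, apart from *CDH3*, which was followed by *CDH2*, *TJP1*, *CDH1*, *CTNND1* and *CDH11*. The ranges of neighbours from *CDH3* to *CDH11* overlapped, and *NCAM1* came last and apart. Within PF replicates 1 to 3, *CDH3* and *CTNNA1* came first with overlapping ranges, apart from *TJP1*. They were followed by *CDH1*, *CTNND1*, *NCAM1*, *CDH11* and *CDH2*, with the ranges of neighbours from *TJP1* on overlapping. *CDH2* was thus the last of the 8 in PF and stood directly after *CDH3* in SF.

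The number in each library's name lies below 40 for SF replicate 1 and PF replicates 1 and 2 and above 40 for the other 4 libraries, and the labels do not say what it stands for. The difference SF minus PF of mean log2(TPM + 1), without PF replicate 4, was 2.79 below 40 and 2.92 above 40 for *CDH2*. It was -2.45 and -1.10 for *CDH3*, and -2.01 and -1.84 for *NCAM1*. These 3 genes kept their direction in both sets of libraries. For *CDH1* the difference was -2.75 below 40 and 1.01 above 40, and for *CDH11* it was -0.17 and 2.02. Each set held only 1 or 2 libraries of a stage, so these are values with no test.

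The reads of a gene are shared out among its annotated transcript models, and the sum over models is what is given above. For *CDH1* and *CDH2* only 1 model each was matched, so no split among models could be seen. For *CDH3* the curated model of 3179 nt held 45.1% to 80.0% of the TPM, and a predicted model of 3087 nt held 0, 47.8% and 0 in SF, against 24.7%, 33.4% and 7.9% in PF replicates 1 to 3. The makeup of *CDH3* therefore differed as much among the SF libraries as between the stages.

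*CDH11* lay mainly on a predicted model of 3718 nt in SF replicate 3 (81.5%) and PF replicate 4 (95.1%), and mainly on the curated model of 3786 nt in the other 5 libraries (70.7% to 100%). The libraries with most *CDH11* were thus also those with the 3718 nt model. *NCAM1* lay wholly on the curated model of 3574 nt in SF replicates 1 and 2 and in PF replicate 4, and wholly or mostly on a predicted model of 5338 nt in SF replicate 3 and PF replicates 1 and 2. PF replicate 3 had all of it on a model of 5342 nt. With 2 to 10 counts in the SF libraries, the choice of model there is not informative.

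*CTNNA1* was split between models of 3703 nt (45.0% to 55.3%) and 3454 nt (35.0% to 51.0%) in every library. *TJP1* had 52.3% to 75.0% on a model of 6757 nt. Of the models in the name table, 13 of 24 for *NCAM1* and 11 of 16 for *CTNND1* were among the deposited transcripts. Deposited transcripts without a match could belong to any gene, so the sum of each gene can be incomplete. In the ARS-UCD2.0 assembly *CDH3* and *CDH1* are adjacent genes, and the span of *CDH3* overlaps *ZFP90*. The reads do not mark strand. *ZFP90* had 6.98, 9.17 and 6.90 TPM in SF, against 7.0, 5.25 and 5.35 TPM in PF replicates 1 to 3, and the part of shared reads in *CDH3* was not tested.

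For each gene up to 3 genes with the most similar pattern are given, sought among 10168 genes with a mean of at least 5 TPM, by Pearson's r of log2(TPM + 1) over the 7 libraries. *CDH2* was closest to *PKM* (r = 0.991), *VDAC2* (0.986) and *RBM8A* (0.979). *CDH3* was closest to *C9orf72* (r = 0.995) and to the unnamed loci *LOC787057* (0.993) and *LOC788736* (0.991). The genes most like *NCAM1* included *DCUN1D5* (r = 0.991) and *NFIA* (0.990). With so many genes and 7 libraries, of which PF replicate 4 stood apart, values this high are a description and carry no test.

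*CDH11* was closest to *NDNF* (r = 0.988), *SMOC2* (0.986) and *ENO1* (0.984), and *CDH1* to *MFHAS1* (0.984), *FGD6* (0.980) and *TMEM39A* (0.977). *CTNNA1* was closest to *DCTN1* (r = 0.985), *GCN1* (0.983) and *LOC112442810* (0.982), and *CTNND1* to *UBP1* (0.983), *GAL3ST3* (0.983) and *NPC2* (0.978). *TJP1* had the least close neighbours, *POLA1* (r = 0.968), *CDC42* (0.947) and *OXSR1* (0.940).

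The surrounding junction genes were read from 8 lists holding 101 genes, of which 85 were tested. By DESeq2, 9 were higher and 10 were lower in SF, or 22.4% of those tested, against 19.1% of all genes tested. Their median log2 fold change was 0.17, and 17 of the 101 genes stayed below 1 TPM in all 7 libraries. Of the 19 genes called, 7 stayed called with each library left out in turn (*CDH4*, *CDH7*, *CLDN10*, *EPCAM*, *JAM2*, *JAM3* and *PKP1*). Only *CADM2*, *CDH7*, *CGN* and *PKP1* were called with PF replicate 4 kept.

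Among the 17 other *CDH* genes, 11 were tested, none was higher and 2 were lower in SF, or 18.2%, against 19.1% of all genes tested. *CDH7*, a type II cadherin known from neural crest of the chick, had 9.55, 7.57 and 1.23 TPM in SF, against 54.1, 55.3 and 24.7 TPM in PF replicates 1 to 3 (log2 fold change -2.57 ± 0.65, DESeq2 adjusted p = 0.0015). This gene came second among the cadherins, after *CDH3*, in these PF libraries and did not overlap between the stages. *CDH4*, the retinal cadherin, had 0.990, 2.59 and 0.691 TPM in SF, against 4.04, 11.8 and 8.80 TPM in PF replicates 1 to 3 (-2.51 ± 0.66, DESeq2 adjusted p = 0.0022). As for *CDH3*, *CDH7* and *CDH4*, every SF library lay below PF replicates 1 to 3 for 9 of the 12 oocyte markers, and the part of the oocyte share in these differences was not tested.

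Of 11 other catenins and linkers to actin, 2 were higher in SF and none was lower, or 18.2%, against 19.1% of all genes tested. *JUP*, or plakoglobin, which can take the place of beta-catenin on cadherin tails, had 161, 181 and 245 TPM in SF, against 106, 123 and 73.3 TPM in PF replicates 1 to 3 (1.11 ± 0.33, DESeq2 adjusted p = 0.0086). *VCL*, or vinculin, which binds alpha-catenin under tension, had 53.7, 69.2 and 132 TPM in SF, against 25.6, 25.4 and 33.8 TPM in PF replicates 1 to 3 (1.70 ± 0.49, DESeq2 adjusted p = 0.0062). Neither overlapped between the stages. Without PF replicate 1 both calls were lost (adjusted p = 0.067 for *JUP* and 0.059 for *VCL* by DESeq2), and without PF replicate 2 that of *VCL* was (0.057).

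*CTNNB1*, beta-catenin, had 214, 408 and 510 TPM in SF, against 209, 224 and 225 TPM in PF replicates 1 to 3 and 466 TPM in PF replicate 4. SF replicate 1 lay inside the PF range, and the difference did not pass (0.92 ± 0.43, DESeq2 adjusted p = 0.12), although it did without SF replicate 1 (0.0069). Summed, *CTNNB1* and *JUP* came to 375, 589 and 755 TPM in SF, against 316, 347 and 299 TPM in PF replicates 1 to 3. *CTNNB1* and *JUP* were thus at higher summed levels in all 3 SF libraries than in PF replicates 1 to 3, while the summed cadherins were lower. PF replicate 4 had 585 TPM of *CTNNB1* and *JUP* together with the highest cadherin sum, 370 TPM. Of the 12 granulosa markers, 8 were higher in every SF library than in PF replicates 1 to 3.

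**Figure D4:**
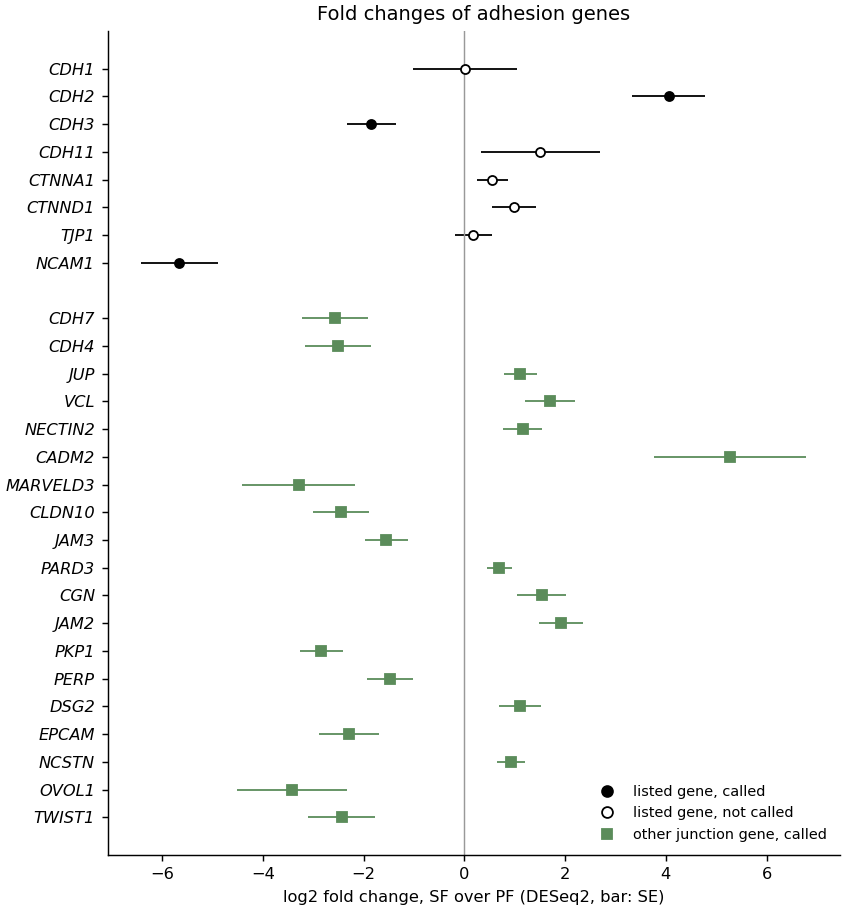
log2 fold change SF over PF (DESeq2, bar: SE, 3 libraries each) of the 8 genes (circles, filled where called) and of all 19 called genes of the 8 junction lists (squares). *CDH2* at 4.06 and *NCAM1* at -5.66 lie farther from 0 than any of the other 6 genes, and of the squares 9 lie right and 10 left of 0.

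Of 9 nectins and CADM molecules, which join cells without calcium, 2 were higher in SF, or 22.2%, against 19.1% of all genes tested. *NECTIN2* had 188, 243 and 318 TPM in SF, against 114, 102 and 152 TPM in PF replicates 1 to 3 (1.16 ± 0.39, DESeq2 adjusted p = 0.021), a call that was lost when PF replicate 1, PF replicate 2, SF replicate 2 or SF replicate 3 was dropped (0.077 to 0.13). *CADM2* had 1.09, 1.24 and 1.67 TPM in SF, against 0, 0 and 0.102 TPM in PF replicates 1 to 3 (DESeq2 adjusted p = 0.0059), and lost its call without SF replicate 2 (0.061) or 3 (0.091). Both *CADM2* levels were low beside those of *NECTIN2*. *CADM1*, at 84.9, 70.4 and 76.3 TPM in SF and 14.1, 48.8 and 43.9 TPM in PF replicates 1 to 3, did not pass (1.28 ± 0.53, DESeq2 adjusted p = 0.071), although it did without PF replicate 1 (0.034) or 3 (0.032).

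Of 22 tight junction genes tested beside *TJP1*, 3 were higher and 3 were lower in SF, or 27.3%, against 19.1% of all genes tested. *CLDN10*, a claudin that forms ion pores between cells, had 77.2, 77.5 and 20.8 TPM in SF, against 409, 464 and 174 TPM in PF replicates 1 to 3 (-2.46 ± 0.55, DESeq2 adjusted p = 3.0e-04). The junctional adhesion molecules *JAM2* and *JAM3*, whose proteins bind each other, were called in opposite directions. With PF replicate 4 kept, where *JAM2* was at 131 TPM, its log2 fold change was 0.07 with no adjusted p, and that of *JAM3* was -1.28 and did not pass (DESeq2 adjusted p = 0.19). *JAM2* had 39.4, 45.0 and 52.2 TPM in SF, against 10.7, 10.6 and 16.8 TPM in PF replicates 1 to 3 (1.92 ± 0.44, DESeq2 adjusted p = 3.4e-04). *JAM3* had 130, 103 and 47.6 TPM in SF, against 401, 313 and 180 TPM in PF replicates 1 to 3 (-1.55 ± 0.43, DESeq2 adjusted p = 0.0044). *CGN*, or cingulin, which binds ZO-1, had 24.1, 32.0 and 32.7 TPM in SF, against 5.78, 14.8 and 12.0 TPM in PF replicates 1 to 3 (1.53 ± 0.48, DESeq2 adjusted p = 0.013), and lost its call without SF replicate 2 or 3 (0.068 and 0.059). The other called genes of this list, *PARD3* (higher) and *MARVELD3* (lower), each lost the call without at least 1 library.

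Of 7 desmosome genes tested, 1 was higher and 2 were lower in SF, or 42.9%, against 19.1% of all genes tested. *PKP1*, or plakophilin 1, a plaque protein of desmosomes, had 0.999, 1.57 and 1.59 TPM in SF, against 12.4, 11.5 and 8.60 TPM in PF replicates 1 to 3 (-2.85 ± 0.43, DESeq2 adjusted p = 1.2e-08). *PERP*, a membrane protein of desmosomes, was lower (-1.48 ± 0.45, DESeq2 adjusted p = 0.0096) and *DSG2*, a desmosomal cadherin, was higher (1.11 ± 0.41, DESeq2 adjusted p = 0.041). Those last 2 calls were lost without PF replicate 1, PF replicate 2 or SF replicate 2, and that of *DSG2* also without SF replicate 3.

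Of 9 immunoglobulin-type and related adhesion molecules tested beside *NCAM1*, 1 was lower in SF and none was higher, or 11.1%, against 19.1% of all genes tested. *EPCAM*, the epithelial cell adhesion molecule, had 41.1, 32.5 and 6.88 TPM in SF, against 166, 153 and 100 TPM in PF replicates 1 to 3 and 6.66 TPM in PF replicate 4 (-2.29 ± 0.60, DESeq2 adjusted p = 0.0021). Its values were lowest in SF replicate 3 and PF replicate 4, the 2 libraries with the least oocyte marker RNA. *BCAM*, a laminin-binding member, was the most abundant of this list, with 518, 408 and 323 TPM in SF and 284, 303 and 263 TPM in PF replicates 1 to 3 (0.66 ± 0.28, DESeq2 adjusted p = 0.075), and passed without SF replicate 3 (0.030).

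Of 7 tested enzymes that process cadherins or NCAM, 1 passed, or 14.3%, against 19.1% of all genes tested. It was *NCSTN*, a subunit of the gamma-secretase that cuts N- and E-cadherin, and was higher in SF (0.92 ± 0.28, DESeq2 adjusted p = 0.0097). Its values of 188, 179 and 129 TPM in SF and 130, 89.7 and 70.2 TPM in PF replicates 1 to 3 overlapped slightly, and the call was lost without PF replicate 2 (0.088) or SF replicate 2 (0.069).

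Of 9 tested regulators of cadherin transcription, 2 were lower in SF and none was higher, or 22.2%, against 19.1% of all genes tested. *TWIST1*, known to lower E-cadherin and raise N-cadherin in several epithelial cell types, had 9.20, 9.67 and 1.69 TPM in SF, against 61.7, 31.3 and 26.7 TPM in PF replicates 1 to 3 (-2.44 ± 0.67, DESeq2 adjusted p = 0.0036), and lost its call without PF replicate 1 (0.055). *OVOL1*, a zinc finger factor of epithelia, was also lower (-3.43 ± 1.09, DESeq2 adjusted p = 0.014), and lost its call without PF replicate 1 (0.084) or 3 (0.094). *SNAI1*, a repressor of E-cadherin, spread from 1.29 to 134 TPM in SF and from 19.3 to 142 TPM in PF replicates 1 to 3 and did not pass (0.21 ± 1.21, DESeq2 adjusted p = 0.93).

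**Figure D5:**
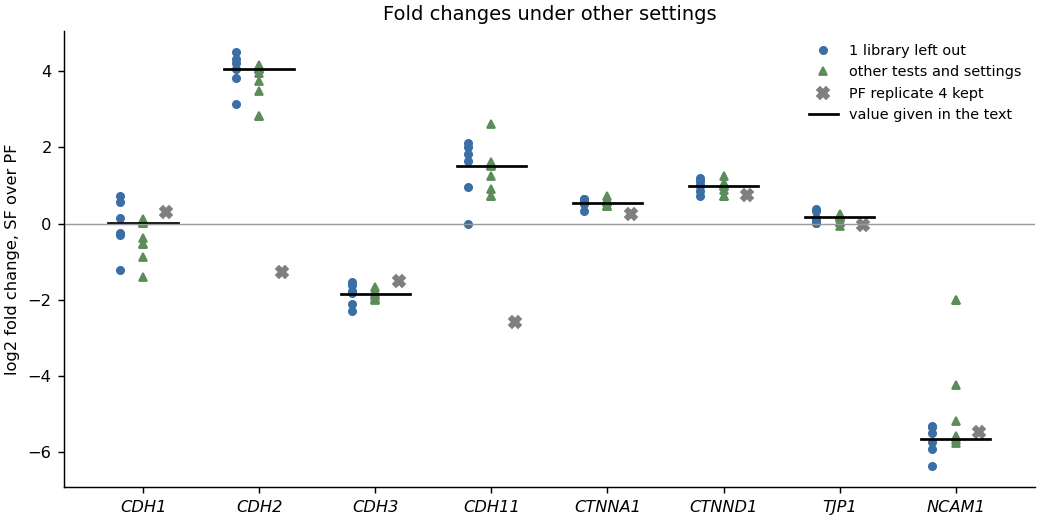
log2 fold change SF over PF of the 8 genes as given in the text (line), with 1 library left out (circles), under other tests and settings (triangles) and with PF replicate 4 kept (cross). *CDH3* and *NCAM1* stayed below 0 throughout, *CDH2* stayed above 0 except at -1.26 with PF replicate 4 kept, and *CDH1* lay on both sides of 0.

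The plot of fold changes under other settings shows how far each value moved. With 1 library left out, *CDH2* ranged from 3.15 to 4.51, *CDH3* from -2.29 to -1.54 and *NCAM1* from -6.36 to -5.30 on the log2 scale. *CTNNA1* (0.34 to 0.65) and *CTNND1* (0.73 to 1.20) stayed above 0 but did not pass in any of these 6 fits.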

How the data were processed

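RNA of pooled whole follicles was amplified with SMART-Seq v4, which does not mark strand, and 7 libraries were used (3 SF, 4 PF; groups and replicate numbers from the titles). The authors trimmed reads with Trim Galore and fastp and quantified transcripts with Salmon against the ARS-UCD1.3 transcriptome. Per the file headers, the deposited tables hold an estimated count, a TPM and an effective length (not used as a level) per RefSeq transcript. Of 76123 transcripts, 50205 (66.0%) were matched by accession to 23704 genes of a RefSeq table of ARS-UCD2.0, used for names and neighbours only. Unmatched transcripts held 9.71% to 10.7% of counts. Estimated counts and TPM were summed per gene, and the counts were rounded.

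SF was compared with PF replicates 1 to 3 by the Wald test of DESeq2 1.42.0 (R 4.3.3, Benjamini-Hochberg adjusted p below 0.05), as in the study. DESeq2 gave 15056 of the 19009 genes with a count an adjusted p. Other settings were edgeR 4.0.16 and limma 3.58.1. The limma fits used log2(TPM + 1) or log2(TPM + 0.1) with a filter of 1 TPM in 3 libraries, and log2(TPM + 1) without it. DESeq2 was also run with TMM factors, a length offset, a filter of 10 counts in 3 libraries, or on all 7 libraries. Further DESeq2 fits had a block for the replicate number, a covariate for the library number (below or above 40), or each library left out. In counts simulated from these libraries, with few genes changed, DESeq2 called about as many unchanged as changed genes. An adjusted p below 0.05 can therefore hold more false calls than its nominal rate. The 8 genes, the gene lists and the naming rule were chosen with earlier results of these data known. Beside the 8 genes, *CTNNB1* and *JUP*, the text names up to 4 called genes of smallest adjusted p and up to 2 uncalled genes of highest mean TPM per list. *CDH2* to *CDH3* ratios, *ZFP90* and the plotted *MARVELD3* and *PARD3* lie outside that rule and were chosen after their values were seen. Marker scores are means of log2(TPM + 1) over a list. Some results are not reported here.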

Additional observations from a re-analysis of the deposited data

Results flagged for a closer look

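The level in 1 PF library lay far from those of the other 3, by Dixon's ratio of gap to range at its 95% critical value, for 11 of 43 genes examined. The nominal rate of about 1 in 20 groups is no yardstick for that count. The uncalled genes among the 43 were mostly taken by mean TPM over all 7 libraries, which a high PF replicate 4 raises. The called ones came from a fit without that library, which was already known to stand apart. For 10 of the 11 genes PF replicate 4 was the high library. In order of the ratio these were *CDH2* (172.3 TPM, ratio 0.995), *PVR* (81.53 TPM, 0.980), *CDH11* (102.5 TPM, 0.971), *SNAI2* (265.9 TPM, 0.958), *JAM2* (130.7 TPM, 0.948), *CTNNB1* (465.7 TPM, 0.938), *VCL* (117.0 TPM, 0.908), *CDH13* (14.68 TPM, 0.892), *CDH8* (25.67 TPM, 0.888) and *DSC2* (23.28 TPM, 0.849). The same library held 5859 TPM of stromal fibroblast markers, and the part of such cells in these levels was not tested. PF replicate 3 was the high library for *CADM2* (0.1024 TPM, ratio 1.00), since the other 3 PF libraries were at 0.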

How the results depend on the processing

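The number of genes called turned on the test. DESeq2 called 2876 genes, 3 of the 8 and 19 junction genes (4800 genes with an unadjusted p below 0.05), and edgeR called 0, 0 and 0 (3844, 4 and 31 unadjusted). limma on log2(TPM + 1) called 792, 2 and 6 (3853, 3 and 28 unadjusted), and on log2(TPM + 0.1) it called 2, 0 and 0 (3689, 3 and 26). On log2(TPM + 1) without the filter on low values limma called 0, 0 and 0 (4043, 3 and 32). Of the 792 genes 754 were also called by DESeq2. With all 7 libraries 858 genes, 1 of the 8 (7 tested) and 4 junction genes were called, and *CDH2* reversed to -1.26. With the library number as a covariate, 5 of the 8 were called. TMM factors, the length offset and the count filter kept 3 of the 8. With 1 library left out, 1887 to 3947 genes, 3 of the 8 in each case and 13 to 27 junction genes were called. The cause of these differences was not tested.

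Same-numbered libraries deviated together by r = 0.239, -0.0291 and 0.367 over 13643 genes, so the replicate numbers were not taken as pairs, and PF replicate 2 was nearest to SF replicate 1 (0.238). The fit with the replicate number as a block called 4077 genes, 2624 of them also called without it, and 30 junction genes. Depth limits *NCAM1* in SF (2 to 10 counts) and *CDH11* in PF replicate 3 (7 counts).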
